A study of Mus musculus with 9 samples.

Results

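Growth factors and cytokines act on dendritic cells through a small set of receptors, and their transcripts were measured here in an RNA-Seq library of mouse plasmacytoid dendritic cells (pDCs). The genes were chosen by name, as receptors or receptor chains for FLT3 ligand, CSF-1, KIT ligand, GM-CSF, IL-3, IL-7 and IL-10. All 9 of them (*Flt3*, *Csf1r*, *Kit*, *Csf2ra*, *Il3ra*, *Csf2rb*, *Csf2rb2*, *Il7r* and *Il10ra*) were found among the 52550 genes with a deposited value. Splenic pDCs came from C57BL/6 mice that were WT (G/G), heterozygous (G/A) or homozygous (A/A) for an *Ncf1* knockin (KI) allele, which puts a histidine in place of an arginine in NCF1, a subunit of the phagocyte NADPH oxidase. The KI allele is in the germline, so every cell of an A/A mouse carried it and not the pDCs alone. Cells were sorted by FACS as CD11c-intermediate, SiglecH-positive and PDCA1-positive, and kept in culture with R848, a ligand of TLR7 and TLR8, at 10 μg/mL for 12 hours. The experiment had 9 samples, 3 of each genotype. Of these, A/A replicate 1 was analysed; values of the remaining 8 libraries were not analysed here. No difference between genotypes was therefore computed, no value has a replicate error and no test was run. All 9 samples were stimulated, so the levels could not be set against unstimulated pDCs.

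According to the methods of the study, female mice of 10 to 12 weeks were used. The library did not follow that description: the Y-linked genes *Ddx3y* and *Kdm5d* had 3215 and 848 counts, *Eif2s3y* and *Uty* had 2703 and 597 counts, and *Xist*, the transcript of the inactive X chromosome, was listed at 0. Transcripts of pDC markers were present. All 11 markers of pDCs were above 3 counts, as were 55.3% of the 21819 protein-coding genes. *Ly6d* was the highest at 72461 counts per kilobase of exon, followed by *Bst2* at 57646, and *Siglech* stood at 3469 on the same scale. *Bst2* and *Siglech* encode the sorting markers PDCA1 and SiglecH, so their counts are no separate check of the cell label.

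Receptors of this kind belong to distinct families. FLT3, CSF1R and KIT are class III receptor tyrosine kinases, single chains that pair with a copy of themselves when the ligand binds. The receptors for GM-CSF, IL-3, IL-7 and IL-10 have no kinase of their own: they join a chain that binds the cytokine to a chain that other receptors also use, and they signal through JAK kinases and STAT factors bound to their tails. FLT3 ligand drives the development of pDCs and conventional DCs from bone marrow progenitors, and the IL-3 receptor alpha chain (CD123) is a surface marker of human pDCs.

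The library held 31408298 counts over 17664 genes. Levels are given as CPM (counts scaled to a library total of 1000000), and genes of different length are compared as counts per kilobase of annotated exon, with 95% intervals in which every 4 counts were taken as 1 observation. The intervals cover counting error only, since no molecular identifiers are named in the sources used here and PCR copies may have been counted. A gene listed at 0 could have had up to 3 counts, or 0.0955 CPM, by counting error, and the upper bound of its Wilson interval, with 4 counts taken as 1 observation, was 0.489 CPM. Because the sample was a pool of cells, fewer cells with a transcript and less of it per cell cannot be told apart.

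All 9 receptor genes were above the limit of 3 counts, as were 55.3% of the 21819 protein-coding genes. Their summed level was 1289 CPM (1264 to 1314). On the scale of counts per kilobase, *Il10ra* was the highest at 2584 and *Kit* the lowest at 91.1, a ratio of 28.4 (24.6 to 32.9). With the longest transcript of each gene as its length, *Kit* was at 155 counts per kilobase and the ratio was 16.7. The median of the 9 genes was 1014 counts per kilobase, against 59.6 over all genes with counts and 120.2 over protein-coding genes with counts. Among genes with counts, ranked by counts per kilobase, *Il10ra* reached percentile 96.4, the median of the 9 genes was at percentile 91.0, and *Kit* was at 57.2. From highest to lowest, the order was *Il10ra*, *Csf2rb*, *Il7r*, *Csf2ra*, *Csf2rb2*, *Flt3*, *Csf1r*, *Il3ra* and *Kit*. Of the 8 pairs of neighbours in this order, 7 differed beyond counting error. The exception was *Csf2ra* and *Csf2rb2*, whose ratio in counts per kilobase was 1.03 (0.942 to 1.13).

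**Figure D1:**
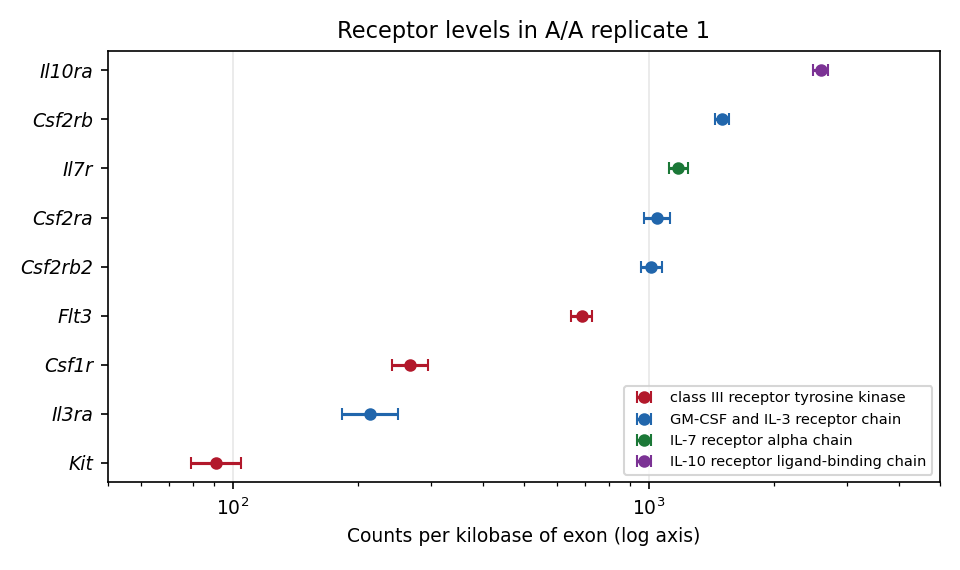
Levels of the 9 receptor genes in A/A replicate 1, in counts per kilobase of exon on a log axis. Points are values and bars are 95% intervals for counting error; colours give the receptor family. The genes run from *Kit* at 91.1 to *Il10ra* at 2584, and only the bars of *Csf2ra* and *Csf2rb2* cover each other's points.

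Among the 3 receptor tyrosine kinases of this set, *Flt3*, the receptor for the ligand that sustains DC development, was the highest. It lies on the minus strand of chromosome 5 (chr5:147330741-147400489, GRCm38) and had 4253 counts, or 135.4 CPM (127.5 to 143.8). Its level of 689 counts per kilobase (648 to 731) put it at percentile 87.5 of genes with counts. With the longest transcript as its length, the level of *Flt3* was 1076 counts per kilobase. *Csf1r*, the receptor through which CSF-1 and IL-34 maintain monocytes and macrophages, lies on chromosome 18 (chr18:61105572-61132149, plus strand) and had 1539 counts, or 49.0 CPM (44.3 to 54.1). *Kit*, the receptor for stem cell factor on progenitors and mast cells, lies on chromosome 5 (chr5:75574916-75656722, plus strand) and had 812 counts, or 25.9 CPM (22.5 to 29.7).

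The 3 kinases thus stood well apart. In counts per kilobase, *Flt3* was 2.58 times as high as *Csf1r* (2.30 to 2.91) and 7.56 times as high as *Kit* (6.50 to 8.83). *Csf1r*, at 267 counts per kilobase, was 2.93 times as high as *Kit* (2.46 to 3.48). The value of *Csf1r* has a particular uncertainty. Exons of *Hmgxb3* on the opposite strand overlap 873 bases of its exons, 15.1% of their length, and the use of strand in the counting is not given in the sources used here, so reads from the shared bases cannot be told apart. *Hmgxb3* itself had 756 counts. With the overlapped bases left out of the length and all counts kept, the level of *Csf1r* was 314 counts per kilobase.

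Each of these kinase genes has a relative close by in the genome, among the receptors for PDGF and VEGF. These relatives were read in the same library as a comparison within the gene family. *Pdgfra*, 377 kb from *Kit*, and *Pdgfrb*, 20.5 kb from *Csf1r*, were listed at 0. *Kdr*, which encodes VEGF receptor 2 and is best known from endothelium, lies 276 kb on the other side of *Kit* and had 43697 counts, or 1391 CPM (1365 to 1418). Its 4839 counts per kilobase were 53.1 times the level of *Kit* (46.2 to 61.3) and 7.03 times that of *Flt3* (6.60 to 7.49). *Flt1*, the VEGF receptor 1 gene located 161 kb from *Flt3*, was low at 26.3 counts per kilobase, and *Flt4*, the VEGF receptor 3 gene, had 81.9 on this scale. *Flt4* and *Kit* did not differ beyond counting error, with a ratio of 0.899 (0.728 to 1.11), but the interval was 0.810 to 0.996 with every count as 1 observation, and the ratio was 0.695 with the longest transcript as the length. Genes that are neighbours on the chromosome therefore ranged from a listed 0 to more than the level of any of the 9 receptors.

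Since *Flt3*, *Csf1r* and *Kit* also mark other cells of the spleen, the markers of those cells are given beside them. Of the other 7 markers of conventional DCs, 6 were above 3 counts, with a summed level of 259 CPM. *Clec9a* was the highest of these at 705 counts per kilobase, followed by *Sirpa* at 432 and *Zbtb46* at 390. The others were lower, with *Itgae* at 52.8, *Clec10a* at 25.5 and *Xcr1* at 12.1 counts per kilobase and *Cd209a* listed at 0, and the median of the 7 markers was 52.8. *Flt3* stood at 689 counts per kilobase. Its 1076 with the longest transcript as the length cannot be set beside these markers, which are given with all annotated exons. All 9 other markers of monocytes and macrophages were above 3 counts and summed to 477 CPM, led by *Lyz2* at 4949, *Fcgr1* at 2183 and *C1qb* at 752 counts per kilobase, with a median of 243 on this scale. For *Kit*, all 6 other markers of mast cells and basophils were above 3 counts, with a sum of 59.6 CPM. *Mcpt8* at 397, *Cpa3* at 184 and *Hdc* at 166 counts per kilobase stood above the 91.1 of *Kit*, whereas *Fcer1a* at 52.1, *Ms4a2* at 12.1 and *Gata2* at 9.45 stood below it. Of the other 4 progenitor markers, 3 were above 3 counts. They summed to 33.6 CPM, nearly all of it from *Procr* at 31.3 CPM, while *Cd34* was listed at 0. The part of such cells in the levels of the 3 kinases was not tested.

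**Figure D2:**
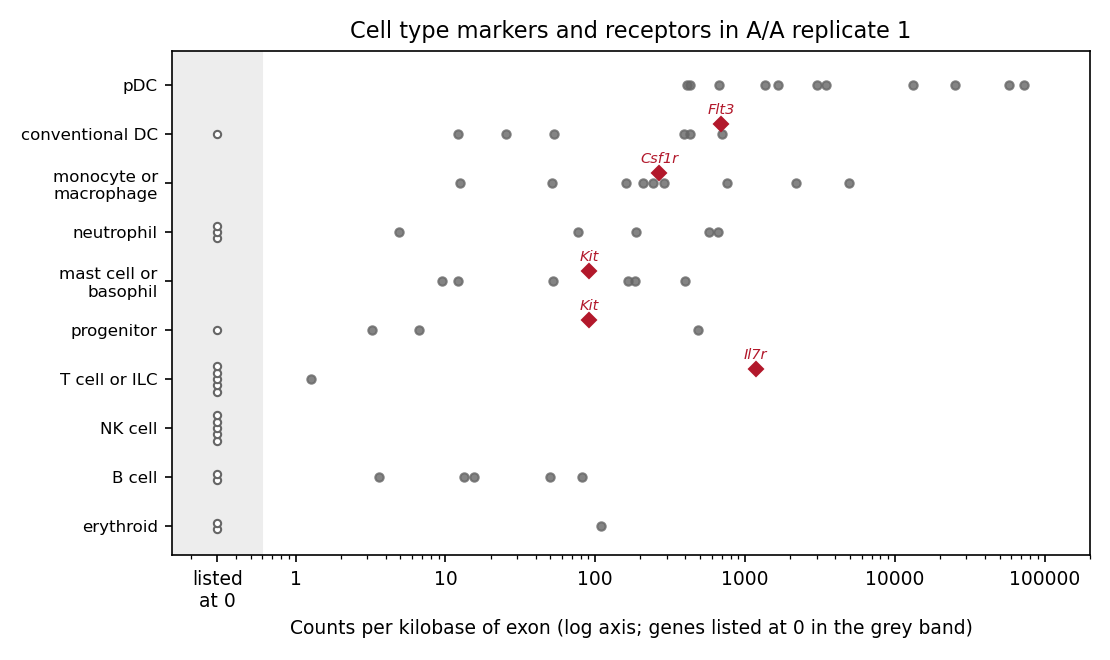
Markers of 10 cell types in A/A replicate 1, in counts per kilobase of exon on a log axis, with a row for each cell type. Grey circles are markers, open circles in the grey band are markers listed at 0, and red diamonds, set slightly above the row, are receptor genes that also serve as markers; *Il7r* at 1175 stands in a row whose other markers are at or near 0.

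GM-CSF and IL-3 use receptors built from an alpha chain of their own and the common beta chain encoded by *Csf2rb*. Mice carry an additional beta chain gene, *Csf2rb2*, whose product serves the IL-3 receptor alone. *Csf2rb* had the most counts of the 9 genes, 10916, or 347.6 CPM (334.8 to 360.8). Its level was 1500 counts per kilobase (1445 to 1557). *Csf2rb2* had 4804 counts, or 153 CPM (144.5 to 161.9), and 1014 counts per kilobase (958 to 1072). In counts per kilobase *Csf2rb* was thus 1.48 times as high as its paralog (1.38 to 1.59).

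The alpha chains differed more than the beta chains did. *Csf2ra*, the GM-CSF receptor alpha chain gene on chromosome 19 (chr19:61224402-61228418, minus strand), had 3007 counts, or 95.7 CPM (89.1 to 102.8). *Il3ra*, the IL-3 receptor alpha chain gene on chromosome 14 (chr14:14346275-14356011, plus strand), had 634 counts, or 20.2 CPM (17.3 to 23.6). It had the lowest CPM of the 9 genes. In counts per kilobase, *Csf2ra* at 1047 was 4.90 times as high as *Il3ra* at 214 (4.12 to 5.85). The common beta chain exceeded both alpha chains on this scale, by 1.43 times for *Csf2ra* (1.32 to 1.55) and by 7.02 times for *Il3ra* (5.98 to 8.29). *Csf2rb2* was 4.74 times as high as *Il3ra* in counts per kilobase (4.02 to 5.63). The remaining alpha chain that pairs with the common beta chain, *Il5ra* of the IL-5 receptor, was listed at 0. *Csf1r* and *Il3ra* lay close together, with a ratio in counts per kilobase of 1.25 (1.03 to 1.51). That interval does not cover reads of *Hmgxb3* that may have been counted for *Csf1r*.

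The beta chain genes lie side by side on chromosome 15 and point in opposite directions. *Csf2rb2* occupies chr15:78282517-78305603 on the minus strand and *Csf2rb* chr15:78325990-78351000 on the plus strand, 20.4 kb apart. On the far side of *Csf2rb2*, at a distance of 19.9 kb, is *Ncf4*, which encodes another cytosolic subunit of the NADPH oxidase that NCF1 belongs to. It had 720 counts per kilobase. On the far side of *Csf2rb*, 27.4 kb away, *Tex33* was listed at 0, and *Il2rb*, the beta chain gene of the IL-2 receptor at a distance of 129.6 kb, had 30 counts.

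**Figure D3:**
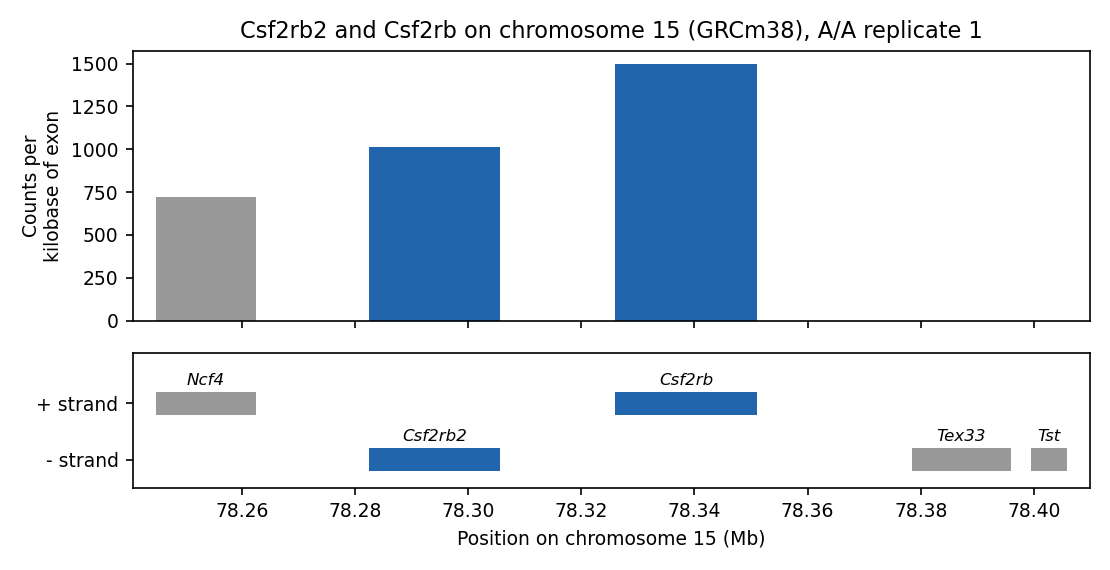
Protein-coding genes around *Csf2rb2* and *Csf2rb* on chromosome 15 (GRCm38, position in Mb), with their levels in counts per kilobase of exon in A/A replicate 1 (upper panel, bar over each gene) and their strand (lower panel). *Csf2rb* at 1500, *Csf2rb2* at 1014 and *Ncf4* at 720 stand beside *Tex33* and *Tst*, which were listed at 0.

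Because reads can be assigned to the wrong member of such a pair, the shared sequence was measured in the annotated transcripts. The coding sequences of *Csf2rb* and *Csf2rb2* were 2688 and 2634 bases long and were identical at 95.2% of 2628 aligned bases. Identity along the coding sequence of *Csf2rb*, in stretches of 300 bases, was lowest in bases 301 to 600 at 89.3% and highest in bases 2101 to 2400 at 99.3%. Windows of 150 bases, the read length of the study, were shared with the other paralog at 165 positions of each gene, out of 7277 and 4740 exon bases. Windows of 50 bases were shared at 892 positions of *Csf2rb* and 893 of *Csf2rb2*. Most windows of the read length thus differed between the paralogs, and how the authors' counting split reads from the others cannot be told from the deposited values.

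The sequences below show where the paralogs can be told apart and where they cannot. The stretch of 60 aligned bases within a single exon that had the most mismatches lies in exon 5 of *Csf2rb* (chr15:78338893-78338952, plus strand) and exon 4 of *Csf2rb2* (chr15:78294379-78294438, minus strand). It is coding sequence, from the GENCODE M21 transcripts, written 5′ to 3′ with the 13 bases that differ in capitals.
Csf2rb: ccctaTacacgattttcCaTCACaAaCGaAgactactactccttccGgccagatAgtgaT
Csf2rb2: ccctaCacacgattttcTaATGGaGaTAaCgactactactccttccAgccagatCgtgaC
At the other extreme, the longest run without any difference had 242 bases. It lies in the coding part of exon 15, the last exon of *Csf2rb* (chr15:78348577-78348818, plus strand), and of exon 14, the last of *Csf2rb2* (chr15:78284630-78284871, minus strand), and a read of 150 bases from within it matches both genes. It is printed in lower case since no base differs.
Shared run: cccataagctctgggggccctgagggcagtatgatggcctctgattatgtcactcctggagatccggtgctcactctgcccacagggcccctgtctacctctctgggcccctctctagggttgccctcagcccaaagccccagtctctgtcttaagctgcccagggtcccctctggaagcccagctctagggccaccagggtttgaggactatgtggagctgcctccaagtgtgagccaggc

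*Il7r* encodes the alpha chain of the IL-7 receptor, a chain that lymphocytes and their progenitors need to survive. The gene (chr15:9506161-9529876, minus strand) had 5479 counts, or 174.4 CPM (165.4 to 183.9). Its 1175 counts per kilobase (1114 to 1239) put it at percentile 92.1 of genes with counts. The IL-7 receptor alpha chain works with the common gamma chain for IL-7, and with the TSLP receptor chain for TSLP, and transcripts of both partners were present. *Il2rg*, the gene of the common gamma chain, had 66120 counts, or 2105 CPM, and its 27700 counts per kilobase were 23.6 times the level of *Il7r* (22.3 to 24.9). *Crlf2*, the TSLP receptor gene, had 589 counts per kilobase, so that *Il7r* was between 1.73 and 2.31 times as high within counting error.

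*Il7r* also marks T cells and innate lymphoid cells, and here the other markers of these cells were at or near 0. Of the other 6 markers, *Cd3e*, *Cd3d*, *Cd3g*, *Bcl11b* and *Il1rl1* were listed at 0 and *Gata3* had 5 counts. Their summed level was 0.159 CPM, against 174.4 CPM for *Il7r*.

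*Il10ra* encodes the ligand-binding chain of the receptor for IL-10, a cytokine that restrains the activation of myeloid cells. The gene (chr9:45253837-45269149, minus strand) had 9040 counts, or 287.8 CPM (276.2 to 299.9). With 2584 counts per kilobase (2480 to 2693) it was 1.72 times as high as *Csf2rb* (1.63 to 1.82), the next in the order. This lead depended on the exon length: the ratio was 1.16 with the longest transcript of each gene. In CPM, without length, *Csf2rb* was the higher at 347.6. *Il10rb*, the signalling chain that IL-10 shares with IL-22 and type III IFN, had 4235 counts, or 134.8 CPM. *Il10ra* exceeded it 2.32 times in counts per kilobase (2.16 to 2.50), and 1.70 times with the longest transcript as the length.

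Each ligand stood below the receptor chains of its own system in counts per kilobase or was listed at 0. Of 10 ligands, 4 were above 3 counts, and together they reached 40.1 CPM. *Csf1* was the highest at 871 counts, or 165 counts per kilobase, which is above the 91.1 of *Kit*, followed by *Flt3l* at 243 counts, or 62.7 per kilobase. *Il7* had 136 counts and *Il10* had 10 counts, or 0.318 CPM (0.0987 to 1.03). *Il34*, *Kitl*, *Csf2*, *Il3*, *Il5* and *Tslp* were listed at 0.

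Receptor and ligand transcripts of the same system were thus both above 3 counts for FLT3, CSF-1, IL-7 and IL-10, although the 10 counts of *Il10* would not pass a floor of 12 counts, which is 3 observations of 4 counts. The CSF-1 pair was the closest: *Csf1r* was 1.62 times as high as *Csf1* in counts per kilobase (1.37 to 1.92). Reads of *Hmgxb3* may be among the counts of *Csf1r*, and the interval does not cover this. *Flt3* was 11.0 times as high as *Flt3l* (8.48 to 14.5) and *Il7r* 48.9 times as high as *Il7* (34.8 to 71.0) on the same scale. For *Il10ra* and *Il10* the ratio in counts per kilobase was 339, with a wide interval (105.6 to 2038) because of the 10 counts of *Il10*. For stem cell factor, GM-CSF, IL-3, IL-5 and TSLP, none of the ligand genes had a count in the library.

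**Figure D4:**
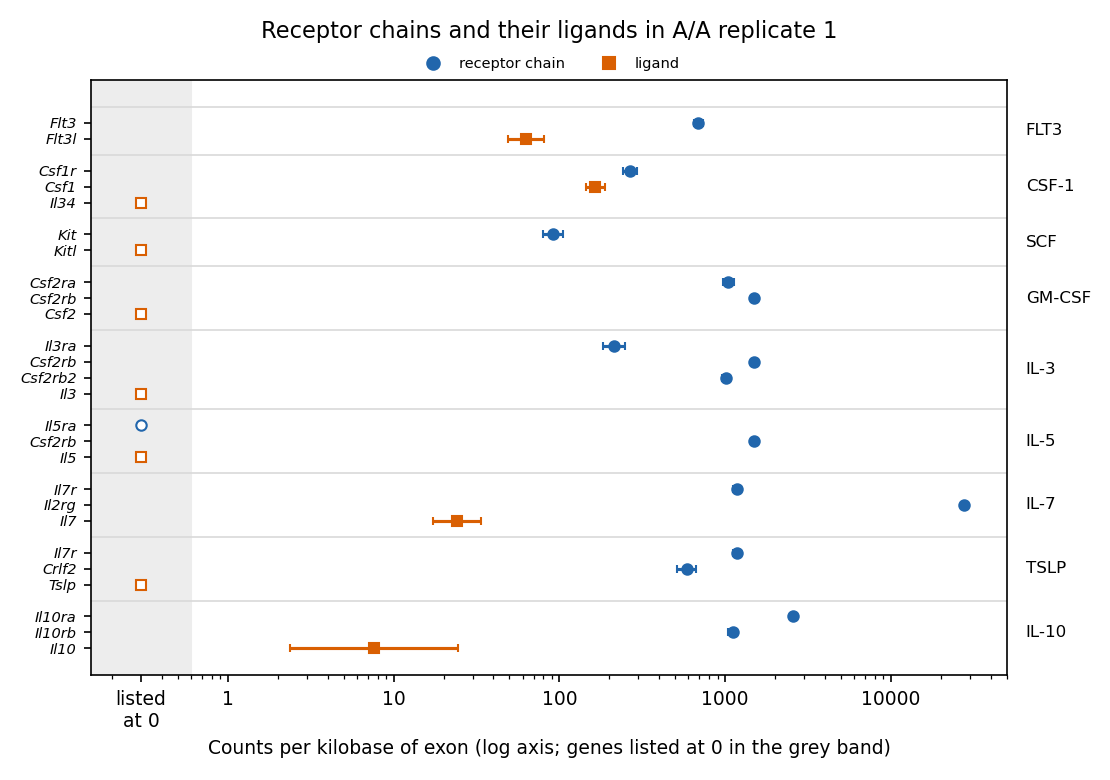
Receptor chains (blue circles) and ligands (orange squares) of 9 cytokine systems in A/A replicate 1, in counts per kilobase of exon on a log axis, with 95% intervals for counting error. Open symbols in the grey band are genes listed at 0; shared chains are repeated in each system. Wherever both had counts, receptor chains stood above the ligand, from 1.62 times for *Csf1r* and *Csf1* upward.

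The 9 receptors were also set beside 23 chains of other cytokine receptors, interferon receptors left out. Of these, 19 were above 3 counts (82.6%). The median of all 23 chains, those listed at 0 included, was 31.3 counts per kilobase, against 1014 for the 9 receptors. The highest were *Il21r* at 2619, *Il2ra* at 1526 and *Il4ra* at 1046 counts per kilobase, which encode chains of the receptors for IL-21, IL-2 and IL-4. *Il21r* and *Il10ra* did not differ beyond counting error in counts per kilobase, with a ratio of 1.01 (0.955 to 1.08), and the same held for *Il2ra* and *Csf2rb*, with a ratio of 1.02 (0.961 to 1.08). Both depended on the exon length: with the longest transcript the ratios were 1.35 and 0.886, outside these intervals, and *Il2ra* to *Csf2rb* was 0.952 with exons clipped to the gene spans of the deposited file. The IL-2 receptor beta chain gene *Il2rb* had 30 counts, far below its alpha chain. The receptor genes for erythropoietin (*Epor*), leptin (*Lepr*) and oncostatin M (*Osmr*) were listed at 0, as was *Il20ra*. The 9 receptors were chosen for their place in DC biology, so nothing is read from their higher median.

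Below the receptors, all 20 genes of the kinases, adaptors, phosphatases and STATs that act on their tails were above 3 counts, with a median of 782 counts per kilobase. *Ptpn6*, which encodes the phosphatase SHP-1, was the highest at 12681, followed by the adaptor gene *Grb2* at 3773 and *Stat3* at 3393 counts per kilobase. *Jak2*, which encodes the kinase bound to the common beta chain, had 3086 counts per kilobase, and *Jak1* and *Tyk2*, the kinase genes of the IL-10 receptor, had 870 and 1979. *Jak3*, the kinase partner of the common gamma chain, was lower at 196 counts per kilobase. Of 11 genes widely read as targets of STAT5 or STAT3, all were above 3 counts. *Mcl1* at 4772, *Bcl3* at 4135 and *Socs1* at 1402 counts per kilobase led this list, whose median was 290. *Socs2* came next at 894 counts per kilobase, and *Cish* at 40.7 and *Bcl2* at 20.2 were the lowest of the list. Whether any of the 9 receptors acted on these genes was not tested.

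The order of the receptors depended in part on the exon length used. With the longest transcript of each gene in place of all annotated exons, *Flt3* had 1076 counts per kilobase and stood above *Csf2rb2* at 1014, so that the ratio of *Csf2rb2* to *Flt3* turned from 1.47 to 0.942. With this length, *Csf2ra* was 1.30 times as high as *Csf2rb2* (1.20 times with clipped exons).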

How the data were processed

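The values the authors deposited for A/A replicate 1 are a signal per gene whose unit is not stated. The submitters' processing notes name HISAT2, StringTie and the builds mm8 and mm10, without roles, and the methods of the study give mRNA libraries, 150 bp paired-end reads and DESeq2. Coordinates were those of GRCm38. The annotation and the use of strand are not given in the sources used here.

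All values above 0 (100%, within 0.01 of a step) were whole multiples of the smallest one, so counts were recovered by dividing by that step, and CPM by dividing by their total. That these are counts was inferred from the values. A count may not be an independent read: on division by 4, genes with 5 to 40 counts left remainders of 0, 1, 2 and 3 in 28.3%, 28.5%, 23.0% and 20.1% of cases, whereas for 41 to 400 counts the shares lay between 24.1% and 25.6%. The cause was not tested, and intervals took every 4 counts as 1 observation as a precaution. This choice was made after the data were seen.

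Gene identifiers without versions were matched to GENCODE M21 (99.7% of 52550), and exon length was the union of all annotated exons. Intervals were Wilson 95% for levels and Clopper-Pearson 95% for ratios, and the floor was 3 counts. Percentiles were taken among 17632 genes with counts and a length, with ties at their midpoint. Coding sequences were aligned globally with Biopython 1.88. Other computations used Python 3.11.15, numpy 2.4.6, pandas 2.3.3, scipy 1.17.1 and matplotlib 3.10.9. The steps were tested on simulated data.

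The 9 members and all lists were chosen with earlier results of these data known, and 3 genes of these lists are not reported here. From each list of partner chains, ligands, kinase relatives, other receptors, signalling genes, targets and markers, the 3 genes with the most counts per kilobase and those at or under the floor were named, with all partner chains, ligands and kinase relatives, and for markers the highest genes and those listed at 0. The genes next to *Csf2rb* and *Csf2rb2* on chromosome 15, *Hmgxb3*, and other single genes outside this rule were named after their values were seen. Comparisons between genotypes, which need the other 8 libraries, and protein comparisons were not run.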

Additional observations from a re-analysis of the deposited data

How the results depend on the processing

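No paired analysis was possible because only A/A replicate 1 was analysed. All 9 receptors stayed above a floor of 10 counts and, as chosen after seeing the data, of 12 counts. The ratio of *Csf2rb* to *Csf2rb2* kept its direction in all settings: from 1.48 it moved to 2.20 with the longest transcript and 2.27 without length. It was 1.37 with bases that start shared 50-base windows left out of the length. All counts were kept in that setting, so it cannot show how reads from shared bases were assigned. The ratio of *Csf2rb2* to *Flt3* turned to 0.942 with the longest transcript, which shortens *Flt3* and not *Csf2rb2*. Of 29 ratios, 13 stayed within their interval with that length, and 24 with exons clipped to the gene spans of the file, a setting added after the data were seen. Ranks of 7 of the 9 receptors held with the longest transcript, 2 without length, and 9 with clipped or with non-overlapped exons. Non-overlapped exons shortened the length with all counts kept, which can only raise a level. That setting therefore cannot show whether reads of *Hmgxb3* were counted for *Csf1r*. Summed, *Csf2rb* and *Csf2rb2* had 500.5 CPM in place of 347.6 CPM for *Csf2rb*. The median percentile of 91.0 became 97.0 among all genes, 89.0 among genes with at least 10 counts, 87.9 among protein-coding genes with counts and 92.6 by CPM. The summed 1289 CPM became 1341 over protein-coding counts, 1428 without the 10 highest genes and 48258 in deposited units. With every count as 1 observation, added after the data were seen, the intervals were narrower, and that of *Flt4* to *Kit* no longer held 1. Depth limits the values that rest on few counts, such as the 10 of *Il10*.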

Other observations

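Markers of NK, erythroid and B cells and of neutrophils were read as well. All 5 markers of NK cells (*Ncr1*, *Klrb1c*, *Eomes*, *Gzma* and *Prf1*) were listed at 0. Of 3 erythroid markers, *Hba-a1* had 89 counts and *Hbb-bs* and *Klf1* were listed at 0. Of 7 B cell markers, 5 were above 3 counts and summed to 11.5 CPM, led by *Cd79b* at 81.1 counts per kilobase, while *Pax5* and *Fcer2a* were listed at 0. Of 8 neutrophil markers, 5 were above 3 counts and summed to 48.0 CPM, led by *S100a8* at 664 counts per kilobase, while *Ly6g*, *Elane* and *Mpo* were listed at 0.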
